A study of Homo sapiens with 2 samples.

Results

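The protein part of the cytoplasmic ribosome was followed at the RNA level in 2 human lung cancer lines. Members were all symbols made of RPL or RPS, a number and at most a final A, L or X, together with RPLP0, RPLP1, RPLP2 and RPSA, with values taken from coding transcripts. This gave 80 genes, 48 of the large and 32 of the small subunit, of 19064 symbols with a coding transcript and 30843 symbols in all. PC9 is a lung adenocarcinoma line with an activating EGFR deletion, which makes it sensitive to EGFR kinase inhibitors. MTAC-P was derived from PC9 and resists such inhibitors, per the labels, which give neither the drug used to derive it nor whether it is 1 clone. Both were kept in DMEM with serum, and no drug is given for either culture at harvest. The design text mentions triplicate profiles, while only 1 value per transcript was at hand for either line, so differences below have no replicate check and no p-value.

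Values are taken as FPKM, a measure corrected for the length of the transcript and the size of the library, and depth is unknown. A gene's value is the sum of its listed coding transcripts. The log2 ratio is log2((MTAC-P + 1)/(PC9 + 1)), positive where MTAC-P is higher, and its pseudocount of 1 understates differences of low genes. Epithelial markers were present in both lines, with EPCAM at 161 in PC9 and 156 in MTAC-P and KRT18 at 2329 and 2720. Of the 6 searched, KRT18 alone had a log2 ratio above 0 (0.22), and 5 lay below, down to KRT8 (-0.35) and KRT19 (-0.35). All 5 leukocyte markers searched had a mean under 1, summing to 1.87 and 0.959. Genes with an MT- symbol, which the mitochondrial genome encodes, held 19.4% of the listed sum in PC9 and 16.9% in MTAC-P.

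Ribosomal proteins clothe the ribosomal RNAs and are needed in equal numbers for each ribosome, apart from the paired acidic proteins of the stalk. Their mRNAs are among the most abundant of a growing cell. Most of these mRNAs begin with a C followed by a run of pyrimidines, the terminal oligopyrimidine or TOP motif, through which the kinase mTOR and the RNA-binding protein LARP1 control their translation. Surplus ribosomal proteins are degraded, so the mRNA level alone does not set the amount of protein.

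The start sites below show this shared feature, which was not used to choose the genes. They run from 10 bases before the RefSeq transcription start to the 20th transcribed base, 5′ to 3′, on GRCh38.p14, and capitals mark a run of C and at least 4 further pyrimidines that begins within 5 bases of the start. Shown are the most abundant gene (RPL39), genes described below for a high ratio (RPS28, RPL9, RPL3, RPS12) or a low one (RPL13, RPS3, RPS15), the 3 stalk genes, and RPS27 with its paralog RPS27L.
RPL39 (chrX:119791611-119791640, minus strand): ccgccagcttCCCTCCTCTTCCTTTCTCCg
RPS28 (chr19:8321486-8321515, plus strand): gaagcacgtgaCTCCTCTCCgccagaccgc
RPL9 (chr4:39458903-39458932, minus strand): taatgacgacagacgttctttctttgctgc
RPS12 (chr6:132814559-132814588, plus strand): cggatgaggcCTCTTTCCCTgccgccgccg
RPL3 (chr22:39319604-39319633, minus strand): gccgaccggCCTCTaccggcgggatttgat
RPLP0 (chr12:120201092-120201121, minus strand): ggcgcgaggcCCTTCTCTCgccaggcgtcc
RPLP1 (chr15:69452808-69452837, plus strand): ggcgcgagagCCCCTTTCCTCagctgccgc
RPLP2 (chr11:809957-809986, plus strand): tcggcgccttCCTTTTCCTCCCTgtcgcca
RPS3 (chr11:75399508-75399537, plus strand): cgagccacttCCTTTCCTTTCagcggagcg
RPS15 (chr19:1438386-1438415, plus strand): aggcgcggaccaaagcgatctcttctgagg
RPL13 (chr16:89560647-89560676, plus strand): tgctatcatcccagagtgcattgcggggcc
RPS27 (chr1:153990752-153990781, plus strand): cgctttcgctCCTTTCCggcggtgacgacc
RPS27L (chr15:63157458-63157487, minus strand): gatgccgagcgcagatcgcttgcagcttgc

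A C followed by at least 4 pyrimidines began within 5 bases of the start in 49 of the 62 members with a RefSeq start (79.0%). It began exactly at the first transcribed base in 41 of them (66.1%), and the median run was 8 bases. The strand of the transcript alone was searched, since the motif is read in RNA. The same search found it within 5 bases of 21.1% of all 27305 RefSeq starts, and at the first base of 4.04%. RPL39 had the longest run of the members, 19 bases, while RPS27L, RPS15, RPL9 and RPL13 had no match that began within 5 bases of the start. RefSeq gives 1 start per gene here, and other starts were not searched.

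Ribosomal protein mRNAs stood at nearly the same level in the sensitive line and its resistant derivative. Of 77 members with a mean of at least 1, none was 2-fold higher or lower in MTAC-P on this scale. RPL13, the lowest at -0.98, passed 2-fold with a pseudocount of 0.1 (-1.26) and with equal upper quartiles (-1.01). Without a pseudocount its values, 4.84 and 1.96, differed by -59.5%, which is past 2-fold. Of the 10554 coding genes compared 6.37% reached 2-fold, 2.86% higher and 3.51% lower. That share covers all levels, whereas 59 of the 77 members averaged 100 FPKM or more. Of the 767 coding genes that abundant, only 10 were 2-fold higher and 10 lower, so 2-fold differences were rare there in general. The median log2 ratio of members was 0.04, their middle quartiles lay between -0.08 and 0.14, and the full range was -0.98 to 0.44. Over all coding genes compared the median was -0.02, with the middle quartiles between -0.27 and 0.22. A log2 ratio of 0.32 in either direction was passed by 13 members. It was passed upward by 6 members against 18.5% of all coding genes compared, and downward by 7 against 21.4%. Across the 77 members the levels of both lines ran in parallel, with Pearson's r of 0.997 on the log2 scale and Spearman's rho of 0.997. These points come from the same 2 libraries and are not independent. They also span a wide range of levels, which keeps both values high even where single genes differ.

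**Figure D1:**
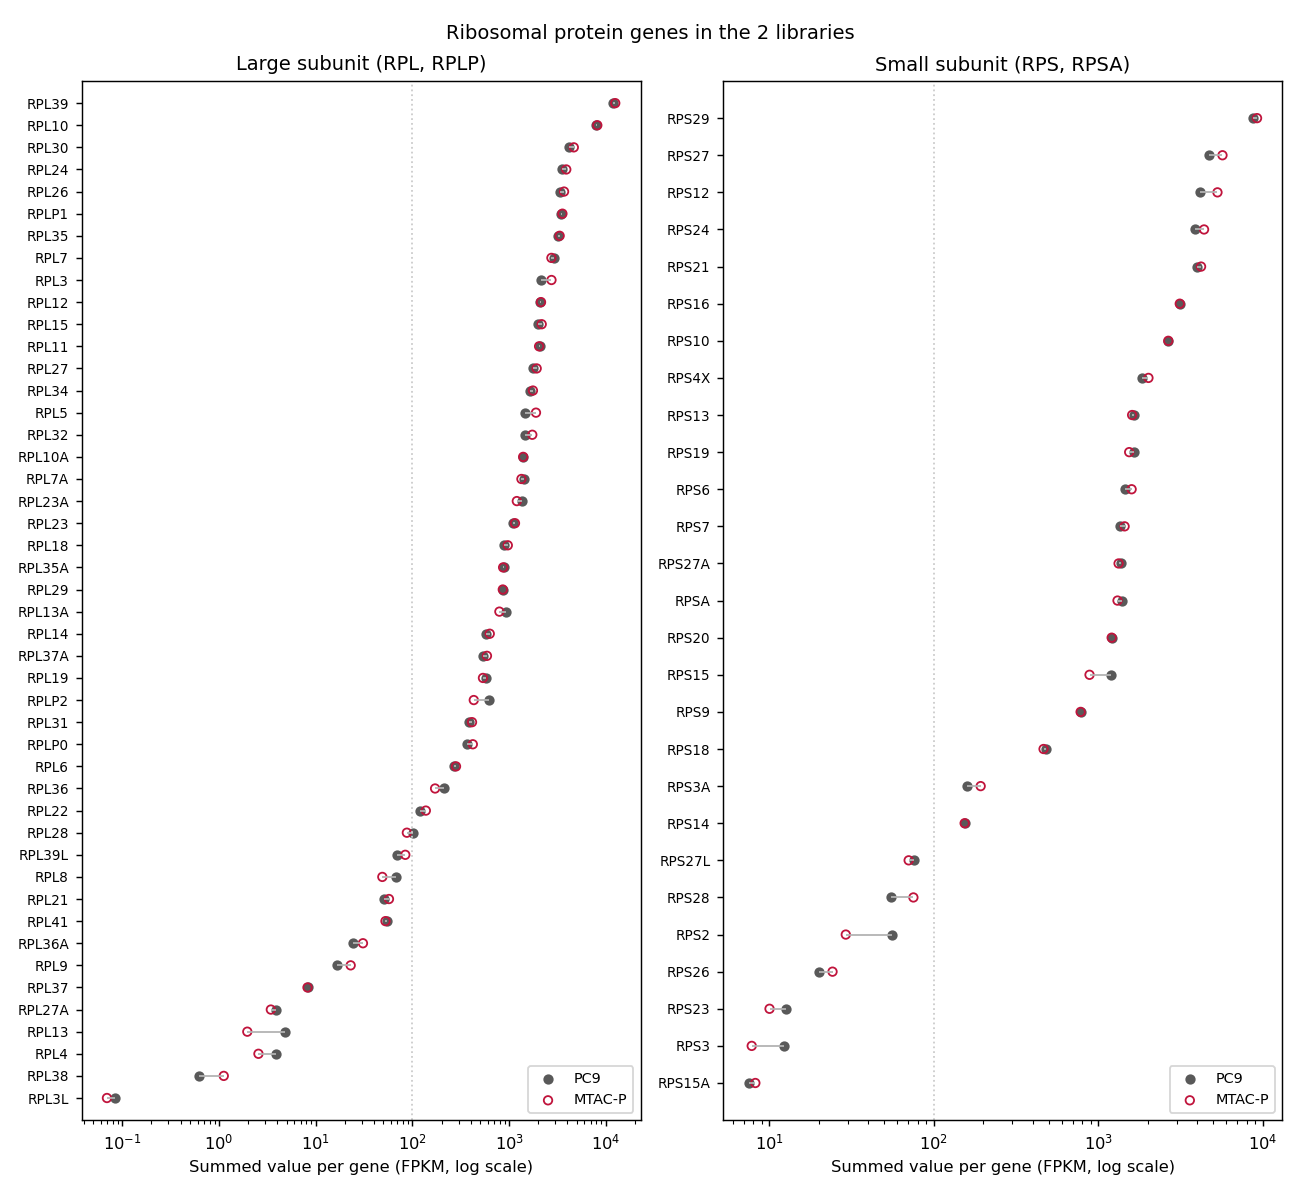
Summed FPKM of 73 ribosomal protein genes in PC9 (filled) and MTAC-P (open), on a log axis, with genes ordered by mean level within the large (left) and small (right) subunit. The dotted line marks 100 FPKM. The paired points lie close together from RPL39 at the top down to 100, and lie farther apart for several genes below it.

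Together the members made up 18.6% of the listed sum in PC9 and 19.8% in MTAC-P, a difference of 1.28 percentage points. Their summed value was 128698 in PC9 and 135923 in MTAC-P. With mitochondrially encoded genes left out of the sum, the shares were 23.0% and 23.9%, a difference of 0.859 points, and the part of those genes in the difference was otherwise not tested. FPKM are relative to each library, so a change in ribosomes or RNA per cell cannot be seen, and fewer cells of a kind and less RNA per cell cannot be told apart. The large subunit supplied 55.2% of the members' sum in PC9 and 54.9% in MTAC-P.

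The median log2 ratio was 0.05 for 45 large subunit genes, with 27 above 0. For 32 small subunit genes it was 0.00, with 17 above 0, and it lay slightly below 0 with scaling that leaves out mitochondrial genes (-0.03) or equalises upper quartiles (-0.03). Both subunits had members at either end of the range. Within each subunit the spread between genes was wider than the distance between the medians: the middle quartiles ran from -0.08 to 0.14 in the large and from -0.05 to 0.14 in the small subunit.

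The level of a member, by contrast, varied widely. Of the 82 coding genes whose mean reached 1000 FPKM, 41 were ribosomal proteins, and 59 members lay at 100 or above. RPL39, a short protein of the peptide exit tunnel (chromosome X, 119786504 to 119791643), was the most abundant, at 11780 in PC9 and 12527 in MTAC-P. RPS29, a small zinc-binding protein of the small subunit, stood at 8740 and 9207. RPL10, which joins late in the making of the large subunit, stood at 7870 and 8171, nearly all of it on transcripts of 292 nt (4370 and 4597) and 657 nt (3494 and 3572). These 3 were at the top in both libraries, with log2 ratios of 0.09, 0.07 and 0.05. Also among the most abundant were RPS27, RPS12, RPL30 (4121 and 4668, 0.18), RPS24 (3847 and 4387, 0.19), RPS21 (3984 and 4206, 0.08) and RPL24. Among members at 100 or above, level and length of the highest transcript ran in opposite directions (Spearman's rho of -0.58, Pearson's r of -0.58 on log2 scales, n = 57). FPKM are scaled to length, and the part of that scaling in this relation and in the ranking by level was not tested. The log2 ratio did not follow length (rho -0.03, r 0.02).

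**Figure D2:**
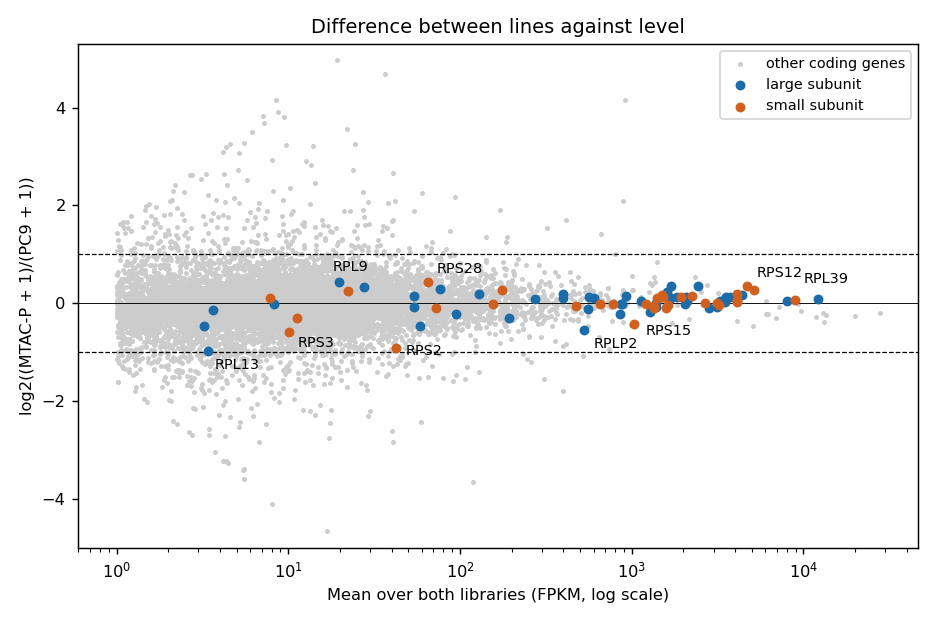
Log2 ratio (MTAC-P over PC9) against the mean FPKM of both libraries (log axis) for coding genes averaging 1 or more: large subunit genes in blue, small subunit genes in orange, other genes in grey. Dashed lines mark 2-fold, and all 77 ribosomal protein genes lie between them, from RPL13 at -0.98, which passes 2-fold with a pseudocount of 0.1, to RPS28 at 0.44.

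Members above and below 100 FPKM differed in how closely the lines matched. The 59 members at 100 or above had a median absolute log2 ratio of 0.10, with 3 past 0.32 upward and 2 downward, against 14.1% and 10.4% of the 767 coding genes at that level. The 18 members from 1 to under 100 had a median absolute log2 ratio of 0.30, with 3 past 0.32 upward and 5 downward. Of the coding genes at that level 18.9% passed it upward and 22.3% downward. The median absolute log2 ratio of coding genes was likewise smaller at 100 or above (0.16) than from 1 to under 100 (0.26). The 5 abundant members past 0.32 were RPS12, RPL3 and RPL5, which were higher in MTAC-P, and RPLP2 and RPS15, which were lower.

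In the large subunit, the stalk that recruits elongation factors is built from RPLP0, its base, and from copies of RPLP1 and RPLP2. RPLP0 stood at 370 in PC9 and 421 in MTAC-P (log2 ratio 0.19). RPLP1 stood at 3472 and 3560 (0.04), and RPLP2 (chromosome 11, 809647 to 812880) at 626 and 431 (-0.54). The 3 genes of 1 structure thus lay on both sides of 0. RPLP2 was the lowest ratio of any member at 100 FPKM or above.

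RPL5 and RPL11 carry the 5S ribosomal RNA into the large subunit, and when free they bind and inhibit MDM2. RPL5 (chromosome 1, 92831983 to 92841924 on GRCh38) stood at 1473 and 1897 (0.36). RPL11, its partner on the same chromosome, stood at 2064 and 2043 (-0.01). MDM2 itself stood at 23.3 and 15.9 (-0.53).

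RPL3, which lies near the catalytic centre (chromosome 22), stood at 2130 in PC9 and 2743 in MTAC-P (0.36). RPL23A, RPL19, RPL26, RPL31 and RPL35 ring the site where the new chain leaves. Their log2 ratios ran from -0.18 (RPL23A, 1359 and 1202) to 0.13 (RPL26, 3371 and 3701), with a median of 0.04. RPL24, which reaches across to the small subunit, stood at 3551 and 3901 (0.14). RPL13A, also known for a role outside the ribosome in silencing inflammatory mRNAs, stood at 926 and 794 (-0.22). RPL32 stood at 1477 and 1737 (0.23), RPL22 at 120 and 138 (0.20) and RPL36 at 213 and 172 (-0.31).

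Other large subunit members at 100 or above lay within 0.2 of 0, among them RPL6, RPL7, RPL7A, RPL10A, RPL12, RPL14, RPL15, RPL18, RPL23, RPL27, RPL29, RPL30, RPL34, RPL35A and RPL37A. Their log2 ratios ran from -0.09 (RPL7) to 0.18 (RPL30).

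In the small subunit, RPS12 of the beak, the protrusion of its head (chromosome 6, 132814441 to 132817564), stood at 4127 in PC9 and 5292 in MTAC-P (0.36). Its neighbour RPS10 stood at 2659 and 2659 (0.00). RPS27A, which is made as a fusion with ubiquitin, stood at 1380 and 1327 (-0.06). RPS27, a zinc-binding protein, stood at 4691 and 5676 (0.27). RPS15, near the decoding site (chromosome 19), stood at 1189 and 884 (-0.43). RPS12 and RPS15 are the ends of the range among small subunit genes at 100 or above.

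RPS6, the substrate of S6 kinase downstream of mTOR, stood at 1458 and 1592 (0.13). RPS19, the gene most often mutated in the inherited anaemia Diamond-Blackfan, stood at 1643 and 1539 (-0.09). Of 18 ribosomal protein genes mutated in that disease 15 lay above 0, with a median of 0.13 and a range from -0.09 to 0.44. None of the 18 was 2-fold higher or lower, beside 6.37% of all coding genes compared. Of the 767 coding genes averaging 100 FPKM or more, 10 were 2-fold higher and 10 lower. Over all 77 members 44 lay above 0. RPSA, also called the laminin receptor precursor, stood at 1397 and 1307 (-0.10). RPS14, which is lost with the long arm of chromosome 5 in a myelodysplastic syndrome, stood at 156 and 154 (-0.02).

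Other small subunit members at 100 or above were RPS3A (158 and 193, 0.28), RPS24 (0.19) and RPS4X (0.13). The log2 ratios of RPS7, RPS9, RPS13, RPS16, RPS18, RPS20, RPS21 and RPS29 ran from -0.05 (RPS18) to 0.10 (RPS7).

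The lowest log2 ratios came from members listed at low levels. RPL13 stood at 4.84 in PC9 and 1.96 in MTAC-P (-0.98). Its 4498 nt transcript went the other way (1.31 and 1.72, 0.24), while an 879 nt form, of retained-intron type in GENCODE 29, stood at 2.35 and 0.0891. RPS2 and RPS3, which grip the mRNA at its entry and are usually abundant, stood at 55.9 and 29.2 (-0.92) and at 12.2 and 7.82 (-0.59). These were the 3 members at 1.5-fold lower, against 10.2% of coding genes, and none was 1.5-fold higher, against 8.16%. RPL8 (68.0 and 48.9, -0.47) and RPL4 of the exit tunnel (3.88 and 2.56, -0.46) were next among these low members. At the other end lay RPS28 (55.1 and 75.1, 0.44), RPL9 (16.7 and 23.0, 0.44) and RPL36A (24.1 and 30.8, 0.34). RPL21, RPL27A, RPL28, RPL37, RPL41, RPS15A, RPS23, RPS26, RPL39L and RPS27L completed the 18, from -0.30 (RPS23) to 0.29 (RPL39L).

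None of these 18 had all its GENCODE 29 coding transcripts listed in the tables, which end at transcript number 437205. RPS28 and RPL41 had no GENCODE coding transcript listed at all, and their values belong to a retained-intron and a processed transcript in that release. RPL35A and RPS18, both at 100 or above, had none listed either. The highest transcript of RPL35A and that of RPL37A were nonsense-mediated decay forms in that release, and that of RPS4X was a processed transcript. Of the 18, 7 had a highest transcript of 1000 nt or more in GENCODE 29, such as RPL37 (7686 nt), RPL27A (4916 nt) and RPL13 (4498 nt). Of the 57 members at 100 or above with a length, 6 did. Only 11 of all 80 members had every GENCODE coding transcript listed, 10 of them with a mean of at least 1. The part of missing transcripts in the levels of the 18 was not tested. RPL38 (0.622 and 1.12) and the paralogs RPL3L (0.0846 and 0.0693) and RPL10L (listed at 0 in both) had a mean under 1 and were not compared, and RPL17 and RPS25 were not analysed here.

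Pseudogene copies carried part of the signal. Transcripts named as pseudogenes of a member had a total FPKM of 10205 (PC9) and 11415 (MTAC-P), equal to 7.93% and 8.4% of the members' sum. For 5 members, RPL3, RPL9, RPL13, RPL21 and RPS23, the pseudogenes stood above the gene in both libraries. RPL9 pseudogenes summed to 608 and 583, far above RPL9 itself. With them added, the log2 ratio of RPL9 was -0.04 in place of 0.44. RPS23 pseudogenes summed to 373 and 456, and the joint ratio was 0.27 in place of -0.30. For RPL13 the pseudogenes stood at 234 and 166, and the joint ratio was -0.50. For RPL21 they stood at 789 and 896 (joint 0.18), and for RPL3 at 2433 and 2856 (joint 0.30). RPL37 stood above its pseudogenes (4.37 and 0.576), but its joint ratio was -0.48 in place of -0.01. RPL39 pseudogenes reached 5696 and 6385 beside the gene's own values (joint 0.11). How reads that match a gene and its copies were divided is not stated by the labels, so the values of these members are uncertain. This sum was added after the values were seen.

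Below the level of the gene, single transcripts differed more between the lines. Of 164 coding transcripts of members with a mean of at least 1, 6 were 2-fold higher in MTAC-P and 11 2-fold lower. Of all 18265 such coding transcripts 7.42% were 2-fold higher and 8.49% lower. Those of members belonged to 15 genes. None of the 77 members compared reached 2-fold as a gene, as given above, so this holds for the 15 without a further check. Among the 84 with a mean of at least 100, 4 reached 2-fold, against 3.61% of all coding transcripts at that level.

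RPS27A showed the widest shift among abundant members. Its 796 nt transcript stood at 838 in PC9 and 1163 in MTAC-P (0.47), and its 705 nt transcript at 519 and 144 (-1.84). The shorter one thus made up 37.6% of the gene in PC9 and 10.9% in MTAC-P, while the sum differed by -0.06. RPS7 was alike, with 865 and 1191 (0.46) for 787 nt against 426 and 192 (-1.14) for 704 nt. In both genes the most abundant transcript was higher in MTAC-P, the second was lower by more than 2-fold, and the gene hardly differed.

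RPL32 differed in another way. Its main 567 nt transcript stood at 1279 and 1302 (0.03), and its 620 nt transcript at 172 and 405 (1.23), beside 0.23 for the gene. In RPS24, 553 nt stood at 3077 and 3888 (0.34), while 537 nt (535 and 340, -0.65) and 656 nt (234 and 160, -0.55) were lower. In RPL36A the 433 nt transcript, a nonsense-mediated decay form in GENCODE 29, stood at 0.681 and 11.7 (2.91), and the 691 nt form at 22.3 and 17.6 (-0.32). The gene's value was higher in MTAC-P and that of its main listed transcript lower. Among transcripts with a mean of at least 10, the share moved by at least 10 percentage points in 7 members. RPS27A, RPS7, RPL32, RPL36A, RPL36 and RPL21 were among them. Below that mean, the 4498 nt transcript of RPL13 made up 27.1% of the gene in PC9 and 87.9% in MTAC-P. In RPL36 the 556 nt transcript stood at 145 and 97.5 (-0.57) and the 707 nt transcript at 67.9 and 74.1 (0.12). Lengths are those of GENCODE 29, which may differ from the annotation behind the values. The deposited tables hold no intervals for the split of reads between overlapping transcripts, and its error was not tested.

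**Figure D3:**
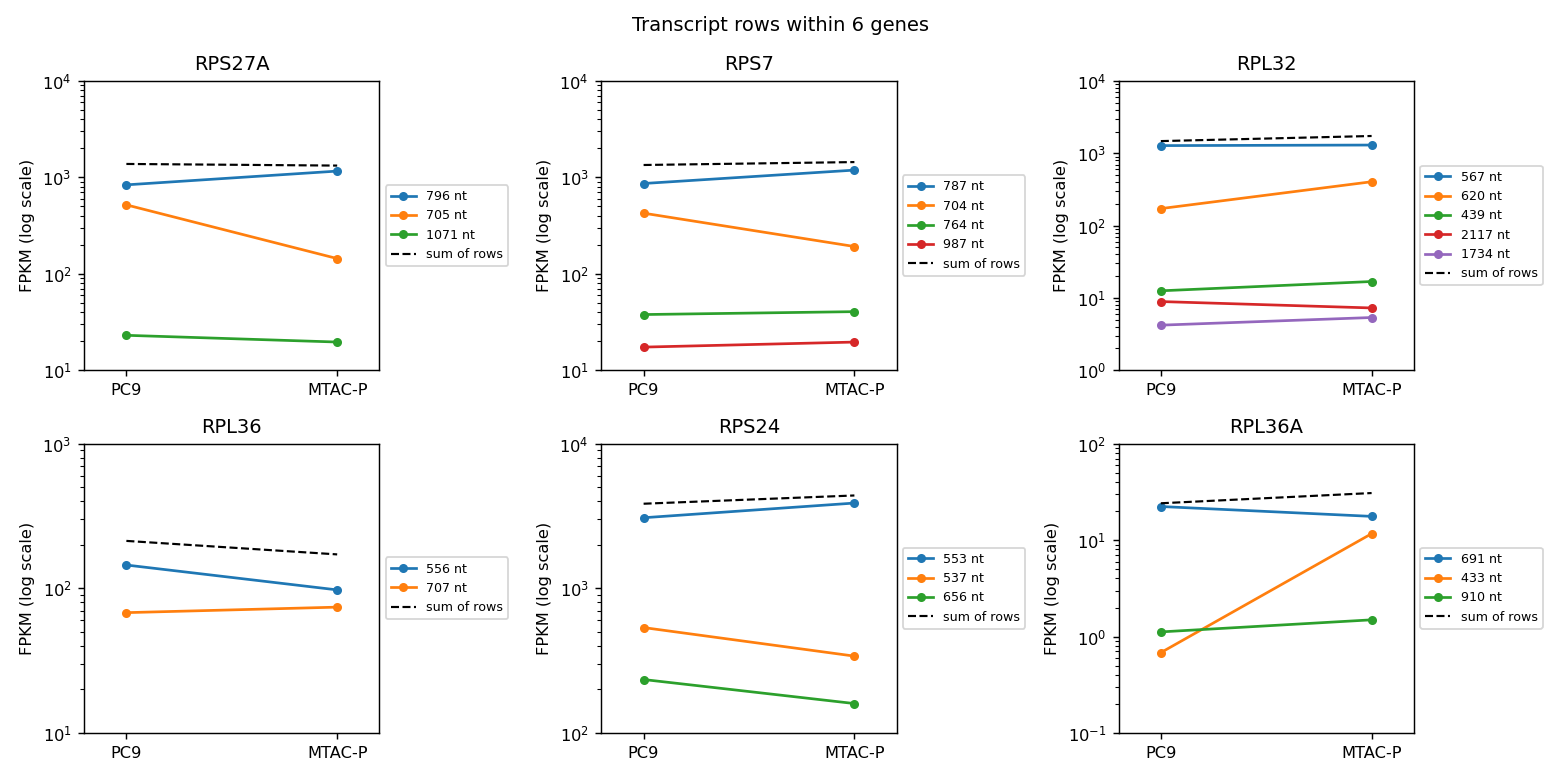
FPKM (log axis) of the listed coding transcripts with a mean of at least 1 in PC9 and MTAC-P for RPS27A, RPS7, RPL32, RPL36, RPS24 and RPL36A, each line labelled by its GENCODE 29 length, with the sum of the gene dashed. The dashed sums are nearly level in RPS27A and RPS7, while their second transcript is lower in MTAC-P.

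Paralogs named with a final L stood far below their partners in RPL39L, RPS27L, RPL3L and RPL10L, but not in RPL36AL. RPL39L, best known from testis, stood at 68.7 in PC9 and 84.4 in MTAC-P (0.29), against 11780 and 12527 for RPL39. RPS27L, a p53-inducible paralog of RPS27, stood at 75.6 and 70.3 (-0.10), and RPS27 at 4691 and 5676 (0.27). The muscle paralog RPL3L was under 0.1 in both libraries, and RPL10L, another testis gene, was listed at 0 in both. Of paralogs outside the symbol rule, RPL36AL stood at 383 and 414 (0.11), above RPL36A at 24.1 and 30.8. Others were RPL26L1 at 53.3 and 49.6 (-0.10), RPL22L1 at 1.76 and 1.67 (-0.05) and RPL7L1 at 42.9 and 26.1 (-0.70). FAU, which encodes a ribosomal protein made as a fusion, stood at 613 and 694 (0.18).

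By position, the medians of other coding genes stood farthest from 0 on chromosomes 1 and 19 among the chromosomes with at least 4 compared members. On chromosome 1 the 5 members, with RPL5, RPL11, RPL22 and RPS27 among them, had a median log2 ratio of 0.20, and the 1060 other coding genes 0.17. On chromosome 19, which holds 12 members, the medians were -0.05 and -0.14. The members there ran from -0.43 (RPS15) to 0.44 (RPS28). Chromosome 11 had the lowest median of members, -0.34 over 4 genes (RPS3, RPLP2, RPL27A, RPS13), while its other 538 genes had a median of -0.05. Of these members RPS3 (12.2 and 7.82) and RPL27A (3.90 and 3.43) were listed at low levels, and RPS13 stood at -0.03. The log2 ratio of the members' sums there was -0.16. On chromosome X all 4 members (RPL10, RPL36A, RPL39, RPS4X) lay above 0, with a median of 0.11. Its 324 other genes had a median of -0.01, with 153 above 0. The main listed transcript of RPL36A was lower in MTAC-P (-0.32). Copy number was not measured, and with 4 to 12 members per chromosome these medians rest on few genes.

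**Figure D4:**
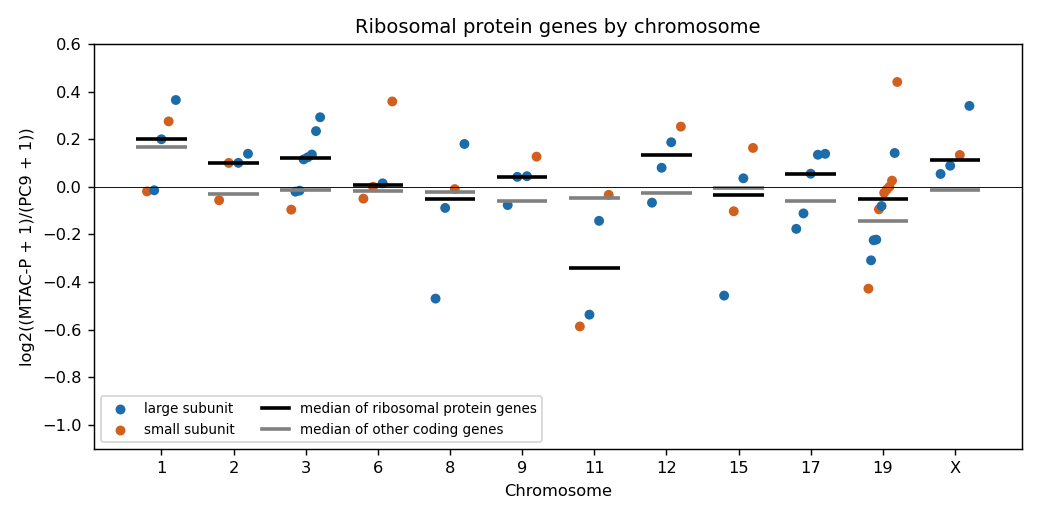
Log2 ratio (MTAC-P over PC9) of ribosomal protein genes by chromosome, for chromosomes with at least 4 compared members: large subunit in blue, small subunit in orange, black bars for their median and grey bars for the median of other coding genes. Members of chromosome 1 centre on 0.20 and those of chromosome 11 on -0.34, with RPS3 and RPL27A among the latter listed under 100 FPKM.

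The surrounding pathway was described with lists of genes. Of 19 elongation factors and other TOP mRNAs compared, none reached 2-fold, and 9 lay above 0 and 10 below. Beside them, 6.37% of all coding genes reached 2-fold, but only 10 higher and 10 lower of the 767 averaging 100 FPKM or more. The log2 ratios of the 19 ran from -0.83 (EEF1A2, 527 and 296) to 0.62 (NACA, 32.6 and 50.7). EEF1A1, which brings aminoacyl-tRNA to the ribosome, stood at 5910 and 6131 (0.05), and EEF1G at 1121 and 1178 (0.07). The list was chosen to hold TOP mRNAs, so finding the motif in it is no separate result. The TOP motif lay within 5 bases of the start in 10 of the 12 of these genes with a RefSeq start. It did so in 14 of 70 ribosome assembly factors and in 15 of 67 mitochondrial ribosomal proteins.

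Assembly factors, which process ribosomal RNA and build the subunits in the nucleolus, had a median of 0.15, with 55 of 80 above 0. None of the 80 was 2-fold higher and 4 were 2-fold lower, beside 2.86% and 3.51% of all coding genes. Of those, 5061 of 10554 lay above 0. Nucleolin, NCL, the most abundant of them, stood at 904 and 1101 (0.28), and NHP2L1, a snoRNA-binding protein, at 458 and 438 (-0.06). The 4 lower genes were BOP1 (49.6 and 10.1, -2.19), which acts in large subunit maturation, NOL8 (17.7 and 3.82, -1.95), NLE1 (2.05 in PC9 and near 0 in MTAC-P, -1.61) and DDX52, a helicase (7.96 and 2.65, -1.30). Of 19 genes of RNA polymerase I and its factors, which transcribe ribosomal RNA, none reached 2-fold, and the median was 0.19. POLR1D stood at 130 and 158 (0.28) and POLR2H at 130 and 126 (-0.04).

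The mitochondrial ribosome is built from a separate set of nuclear genes. Of its 74 genes compared, 1 was 2-fold higher, MRPS27 (11.5 and 29.8, 1.30). There were 2 that were 2-fold lower, MRPS25 (29.5 and 10.5, -1.40) and MRPS28 (60.2 and 27.0, -1.13). Neither count exceeded the 2.86% and 3.51% of all coding genes. The median was -0.04, and the most abundant were MRPL33 (0.26) and MRPS24 (0.33). Among 18 regulators of ribosomal protein synthesis the median was -0.18, with 5 above 0 and 13 below. EIF4EBP1, the mTOR substrate that blocks cap-dependent initiation, was the 1 gene at 2-fold (57.8 and 23.1, -1.29), beside 6.37% of all coding genes. The highest ratios were those of TIA1 (0.81), MAX (0.56) and MYC (0.50). The most abundant were AKT1S1 (93.7 and 86.7, -0.11) and TIAL1 (93.9 and 70.8, -0.40). LARP1 stood at 77.3 and 70.9 (-0.12), MTOR at 13.1 and 13.6 (0.05), RPS6KB1, which encodes S6 kinase, at 8.39 and 9.04 (0.10), and RPTOR, a subunit of the mTOR complex, lower (log2 ratio -0.73).

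**Figure D5:**
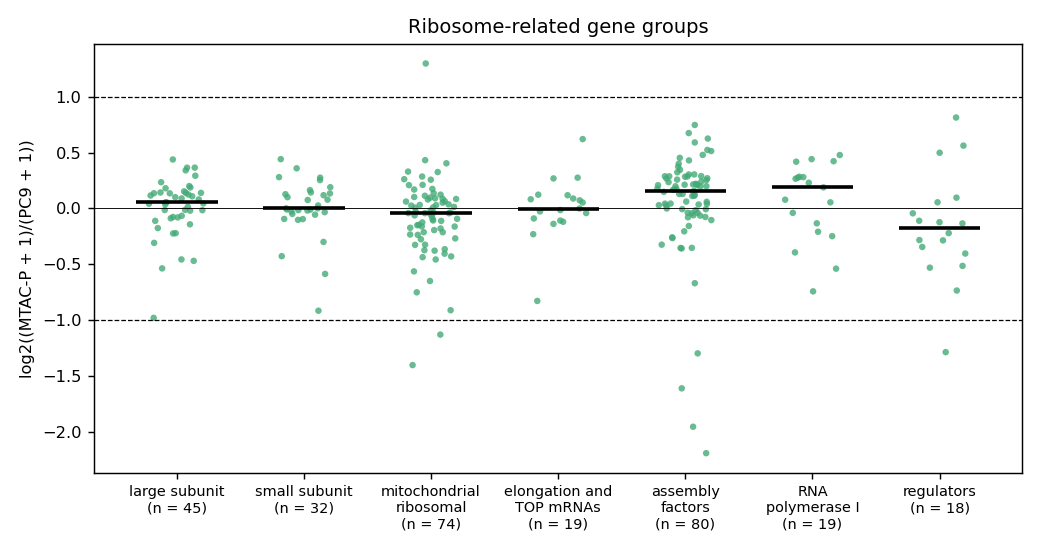
Log2 ratio (MTAC-P over PC9) of each compared gene in 7 ribosome-related groups, with the median as a black bar, dashed lines at 2-fold and a small sideways scatter for legibility. Large and small subunit genes stay between the dashed lines. Assembly factors and mitochondrial ribosomal proteins have 4 and 3 genes beyond them, beside 6.37% of all coding genes. Of the 767 coding genes averaging 100 FPKM or more, 10 were 2-fold higher and 10 lower.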

How the data were processed

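RNA-seq of PC9 and MTAC-P, 1 library each, was used. The submitters' processing notes name Trim Galore, TopHat and Cufflinks, with hg38, and no versions. They do not name a gene annotation. For each transcript the authors deposited 1 value, read here as FPKM since Cufflinks is named, although the tables name no unit. Depth is unknown, so no interval is given. Each table lists 65535 transcripts and ends at number 437205.

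Coding transcripts were summed per symbol with Python 3.11.15 and pandas 2.3.3, leaving out 25 symbols turned into dates. The log2 ratio, with a pseudocount of 1, was taken for genes averaging 1 FPKM or more, and those at 2-fold were counted. With 1 library per line no test was made. GENCODE 29 gave lengths, types and coordinates, and RefSeq (GRCh38.p14) gave start sites for 62 of 80 members.

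Every member may be named; those described in full were the extremes, the most abundant, functional groups and paralogs. Of other lists, genes at 2-fold and the 2 most abundant were named, with a few chosen after their values were seen. The members and lists were chosen with earlier results of these data known. The alternatives changed pseudocount, scaling, filter, transcripts, members and fold. The summing was tested on simulated data. Results for a few genes are not reported here.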

Additional observations from a re-analysis of the deposited data

How the results depend on the processing

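No paired analysis was possible because PC9 and MTAC-P have 1 library each, and no replicate could be left out. The count of 0 members at 2-fold became 1 with a pseudocount of 0.1 and 1 with equal upper quartiles, in both cases RPL13 (-1.26 and -1.01). Without a pseudocount the values of RPL13 differed by -59.5%, so its place under 2-fold rests on the pseudocount of 1. It became 3 at 1.5-fold and 13 past a log2 ratio of 0.32, which are lower thresholds. The medians of both subunits stayed within 0.1 of their values in the alternatives run, except that the small subunit stood at 0.13 over the 5 genes with all coding transcripts listed. The share difference of 1.28 points was 0.495 with only the genes whose coding transcripts are all listed and 0.446 with genes on 1 coding row, both of which sum fewer genes. With only the highest transcript per gene the small subunit median (0.08) lay above the large (0.04). Of 1092 values of single members under alternatives, 1090 kept their side of 2-fold and 29 changed sign. A sign change with a main ratio of at least 0.2 in size was seen in 4 members, RPL13 (0.24) and RPL36A (-0.32) with the highest transcript alone, and RPL9 (-0.04) and RPS23 (0.27) with pseudogenes added. The sum with pseudogenes and a mean of at least 100 were added after seeing the data. Depth is unknown, so low members have no stated precision.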

Other observations

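Pseudogene transcripts named after ribosomal protein genes were few but in part abundant. Of 248 listed, 179 were listed at 0 in both libraries and 20 had a mean of at least 1. Those 20 had a median log2 ratio of 0.20, and 3 were 2-fold higher in MTAC-P and 3 lower. The most abundant was RPL39P3 (5696 FPKM, then 6385 in MTAC-P), followed by RPL3P4 (2433 and 2856) and RPL21P28 (787 and 895). The 6 at 2-fold all had a mean under 10, such as RPL13AP20 (3.60 and 9.40, 1.18) and RPL37P1 (4.37 and 0.576, -1.77).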
